A study of Saccharomyces cerevisiae with 58 samples.

Results

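At the end of the time course, transcript levels of 5449 yeast genes were compared between a B-type cyclin mutant and the wild type of Saccharomyces cerevisiae (budding yeast). The comparison used the arrays taken at 230, 238, 246, 254 and 262 min, which are 10 of the 58 arrays of the study, 5 per strain. These were all the arrays of both cultures of each strain at those times, chosen by their sample titles and not by any measured value. Cells in G1 were collected by elutriation, a sorting by size, and were followed in rich dextrose medium with 1 M sorbitol at 30 C. Total RNA was biotin-labelled and hybridised to Affymetrix arrays, and there were 2 biological replicates of each strain, per the series design.

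The mutant is a BF264-15DU MATa strain in which, per the labels, clb1 is disrupted by URA3, clb2 by LEU2, clb3 by TRP1, clb4 by HIS2, clb5 by ARG4 and clb6 by APE1. It also carries a construct, marked by LEU2, in which the GAL1 promoter drives CLB1. The wild type is BF264-15DU MATa with bar1, an allele that the mutant label does not list. The marker genes and the GAL1 construct are named for the mutant alone, so their effects and those of the lost cyclins cannot be told apart. The labels give dextrose medium for both strains, and glucose represses the GAL1 promoter.

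B-type cyclins activate the kinase Cdc28, which drives DNA replication, spindle formation and mitosis and blocks the start of a new round until the cell has divided. In the wild type, waves of transcription follow each other through the cycle. SBF and MBF switch on the G1/S genes, forkhead proteins with Mcm1 and Ndd1 switch on the CLB2 cluster of G2/M genes, and Swi5 enters the nucleus at mitotic exit, when M/G1 genes such as those of cell separation are switched on. Mcm1 also acts on early cell cycle boxes at the M/G1 border, where Yox1 and Yhp1 repress it. Outside the cycle, Slt2 is the kinase of the cell wall integrity pathway, and Msn2 and Msn4 drive the general stress response.

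Each sampling time in this window comes from 1 culture per strain. Mutant culture 1 and wild-type culture 2 were sampled at 230, 246 and 262 min, and mutant culture 2 and wild-type culture 1 at 238 and 254 min. The replicate in every test was therefore the culture mean (n = 2 per strain), and all levels below are log2 intensities. The median over genes lay between 10.79 and 10.89 on the 10 arrays. Arrays of a culture correlated at 0.997 to 0.999 across genes. The mutant cultures correlated with each other at 0.981 to 0.984 and the wild-type cultures at 0.995 to 0.997, and mutant against wild-type arrays gave 0.916 to 0.950. The median SD between cultures was 0.109 in the mutant, against 0.0562 in the wild type. Signal near the 3′ end minus signal near the 5′ end was larger in the mutant for 7 of 7 control transcripts (by 0.18 to 0.40, median 0.29), with mutant cultures above wild-type cultures for 5 of them. Probe sets for genes outside the S. cerevisiae annotation gave a background level of 9.14 (their 95th percentile), which 4908 genes exceeded on average. Of these 1746 background probe sets, 3 were higher and 217 lower in the mutant in a joint fit (12.6% called, median difference -0.12), against 35.5% of the genes. How far these differences in RNA ends and background entered the gene results was not tested.

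Many genes differed between the strains in this window, in both directions. In the mutant 1096 genes were higher (20.1% of 5449) and 884 lower (16.2%), or 36.3% in either direction, by limma with Benjamini-Hochberg adjustment at 0.05. At 2-fold or more, 195 of the called genes were higher (3.58%) and 134 lower (2.46%). The median difference over all genes was 0.01. The 5 mutant arrays did not overlap the 5 wild-type arrays for 3278 genes (60.2%), among them 1978 of the 1980 called genes. The number of calls depended on which culture was left out, as the strain left with 1 culture then gave no estimate of spread. Without wild-type culture 1 it was 344 higher and 218 lower, and without wild-type culture 2 it was 374 and 261, the spread then being set by the mutant cultures alone. Without mutant culture 1 it was 1374 and 1375, and without mutant culture 2 it was 1884 and 1457.

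**Figure D1:**
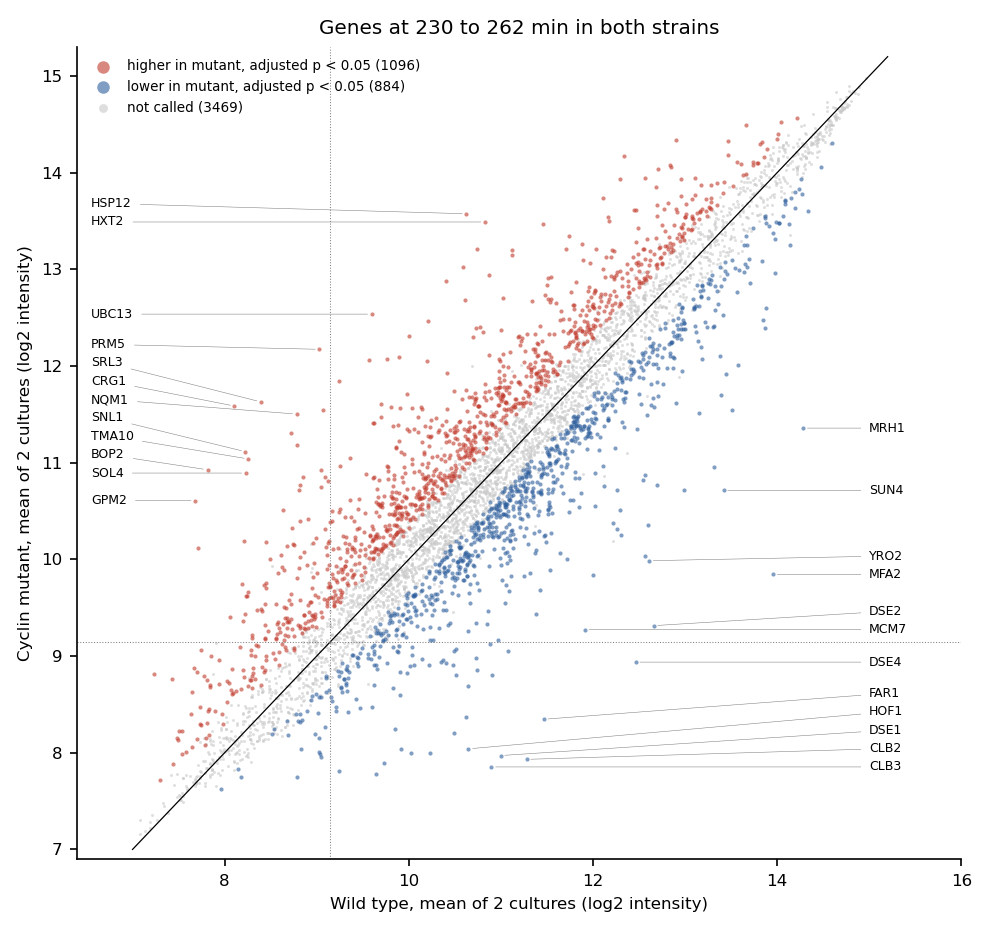
Level of each of 5449 genes in the cyclin mutant (vertical axis) against the wild type (horizontal axis), as the mean of 2 cultures at 230 to 262 min on the log2 intensity scale. Red points are the 1096 genes called higher and blue points the 884 called lower in the mutant, the dotted lines mark the background level of 9.14, and the 12 largest rises and falls are named.

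The disrupted cyclin genes were examined first. CLB2, which encodes the main mitotic cyclin, read 7.86, 8.04, 7.88, 7.93 and 7.90 on the mutant arrays in order of time, against 11.53, 11.25, 11.26, 11.28 and 11.10 on the wild-type arrays. CLB3 lay between 7.76 and 7.98 in the mutant, against 10.82 to 10.95 in the wild type, and CLB4 between 7.94 and 8.04, against 10.12 to 10.35. All 5 mutant arrays were below background for these 3 genes and no wild-type array was. The mutant was at least 4.40-fold lower for CLB2, at least 3.38-fold for CLB3 and at least 2.12-fold for CLB4 (limma adjusted p = 1e-04, 1e-04 and 0.0002).

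The other 3 cyclin genes kept signal above background in the mutant. The S-phase cyclin gene CLB5 read 11.73, 11.36, 11.81, 11.30 and 11.90 on the mutant arrays, against 10.11, 10.09, 10.10, 10.22 and 10.14 on the wild-type arrays. It rose by 1.44 ± 0.17 (SE; limma adjusted p = 0.0032), with mutant culture 1 above mutant culture 2. CLB6, its paralogue, averaged 9.79 ± 0.39 in the mutant, against 11.02 ± 0.08 in the wild type (SD, n = 2 cultures each), a difference of -1.23 (limma adjusted p = 0.0064). CLB1 averaged 11.19 ± 0.04 in the mutant, against 10.96 ± 0.01 in the wild type and was not called (difference 0.23, limma adjusted p = 0.093). The positions of the probes relative to the disruptions were not analysed here, so signal from a disrupted gene or from the GAL1-driven copy checks neither.

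All 5 measured marker genes were higher in the mutant. The differences were 2.01 for ARG4, 1.78 for APE1, 1.55 for HIS2, 1.14 for URA3 and 0.61 for LEU2 (limma adjusted p between 0.00024 and 0.0059). For URA3, separate control probe sets gave 1.26 near its 3′ end and 1.04 in its middle, but -0.68 near its 5′ end. LEU2 lost its call without wild-type culture 1 or 2 (adjusted p = 0.062 and 0.078). BAR1, the protease that degrades alpha-factor, read 10.04 to 10.40 on the mutant arrays, against 8.08 to 8.49 on the wild-type arrays, all 5 below background. The wild type is labelled bar1, and BAR1 was at least 2.07-fold higher in the mutant (limma adjusted p = 0.00067). Its neighbour in the annotation, SNL1, a co-chaperone of the endoplasmic reticulum, read 11.04 to 11.29 in the mutant, against 8.12 to 8.28 in the wild type, and was at least 3.92-fold higher (limma adjusted p = 0.00013). TRP1 was not analysed here.

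Genes of the M/G1 wave, among them those of cell separation, were lower in the mutant. Of 21 measured members of that list 16 fell and 1 rose, with a median difference of -1.53, against 16.2% lower, 20.1% higher and a median of 0.01 over all genes. DSE4, a glucanase that opens the septum from the daughter side, read 9.05, 8.80, 9.02, 8.84 and 9.11 on the mutant arrays, against 12.01, 12.54, 12.56, 12.53 and 12.60 on the wild-type arrays. All 5 mutant arrays were below background, and the wild-type array at 230 min was the lowest of its strain. The mutant was at least 10-fold lower (limma adjusted p = 0.00013).

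The other daughter-specific genes also fell. DSE1 read 7.86 to 8.11 on the mutant arrays, all below background, against 10.28 to 11.34 on the wild-type arrays, and was at least 3.62-fold lower (limma adjusted p = 0.00013). DSE2 read 9.14, 9.37, 9.10, 9.54 and 9.29 in the mutant, against 11.95, 12.74, 12.57, 12.98 and 12.85 in the wild type, and fell by 3.34 ± 0.17 (SE; limma adjusted p = 0.00033). For DSE2, 2 mutant arrays were below background, and the wild-type array at 230 min was again the lowest of its strain. SUN4, a cell wall protein of septation, averaged 10.71 ± 0.44 in the mutant, against 13.42 ± 0.12 in the wild type (SD, n = 2 cultures each). The chitinase gene CTS1 fell by 1.53, EGT2 by 2.36, SCW11 by 1.95 and AMN1, an antagonist of the mitotic exit network, by 1.92 (limma adjusted p between 0.00033 and 0.0046). The Pho85 cyclin gene PCL9 (-2.26), PRY3 (-2.05), DSE3 (-0.82) and the transcription factor gene TEC1 (-0.77) fell too.

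Of the remaining members, CHS1, the chitin synthase that repairs the wall after separation, rose by 0.56 (limma adjusted p = 0.0069). NIS1 (-0.19), PST1 (-0.01), CYK3 (0.18) and SIC1 (0.24), the inhibitor of B-type cyclin kinases, were not called. ASH1, a daughter-specific repressor of HO, read 9.77 to 9.93 on the mutant arrays, against 11.85 to 12.20 on the wild-type arrays. The arrays did not overlap, and ASH1 fell by 2.16 ± 0.09 (SE; limma adjusted p = 0.00021). HO itself, the mating type endonuclease, fell by 1.29, and RME1, a repressor of meiosis, by 1.44, with 2 mutant arrays of RME1 below background. Without wild-type culture 1 or 2 the list had 16 falls and no rise, and without mutant culture 2 it had 16 falls and 3 rises. In these bulk cultures, fewer cells in a stage and less RNA per cell cannot be told apart.

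Genes with an early cell cycle box fell too. In this list of 10, 9 members were lower, none rose (none at an unadjusted p under 0.05 either) and the median was -1.23. Over all genes 16.2% were lower and 20.1% higher. FAR1, the inhibitor of G1 cyclin kinase in the mating response, read 8.56, 8.12, 8.49, 8.18 and 8.58 on the mutant arrays, against 11.53, 11.39, 11.60, 11.35 and 11.57 on the wild-type arrays. The mutant was below background on all 5 arrays and at least 5.01-fold lower (limma adjusted p = 0.00031). All 6 subunits of the replicative helicase fell. MCM7 read 9.01, 9.57, 9.02, 9.50 and 9.02 in the mutant, against 12.03, 11.81, 12.02, 11.76 and 12.07 in the wild type, a difference of -2.64 ± 0.19 (SE; limma adjusted p = 0.00081). In the mutant the 3 arrays of culture 1 were the lower ones, all below background, and in the wild type those of culture 1 were the lower ones.

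The other helicase genes differed by -1.75 (MCM5), -1.74 (MCM3), -1.23 (MCM4), -1.23 (MCM2) and -1.10 (MCM6). CDC6, which loads the helicase at origins, fell by 0.52 and was not called without wild-type culture 1 or 2 (adjusted p = 0.057 and 0.19). CLN3, the most upstream G1 cyclin gene, read 10.76, 11.22, 10.48, 11.25 and 10.42 on the mutant arrays, against 12.08, 11.93, 12.16, 11.96 and 12.04 on the wild-type arrays. It fell by 1.12 ± 0.22 (SE; limma adjusted p = 0.015), and by 1.04 without wild-type culture 2, where it was not called (adjusted p = 0.057). SWI4, the DNA-binding subunit of SBF, was not called (-0.21, limma adjusted p = 0.49). The list had 8 falls without wild-type culture 1 and 7 without wild-type culture 2.

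**Figure D2:**
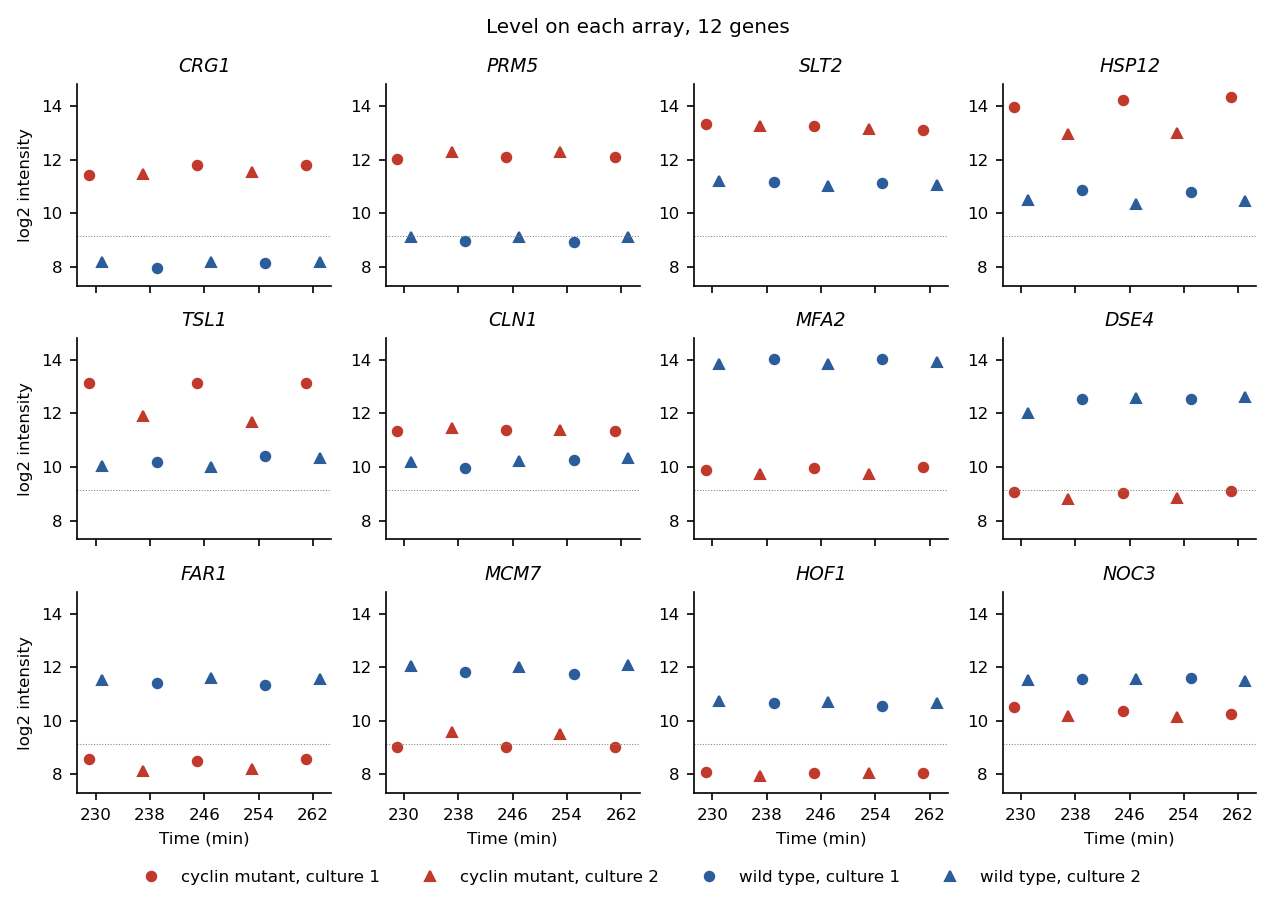
Level of 12 genes on each of the 10 arrays (vertical axis, log2 intensity) by time (horizontal axis, min). Red marks are cyclin mutant arrays and blue marks wild-type arrays, circles are culture 1 and triangles culture 2, and the dotted line is the background level of 9.14. The 12 genes were picked among called genes, and the strains do not overlap for any of them. The same holds for 1978 of the 1980 called genes and for 60.2% of all 5449 genes. For HSP12 and TSL1 the circles and triangles of the mutant lie apart.

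The CLB2 cluster of G2/M genes was lower in part. Of 30 measured members 16 fell and 2 rose, against 16.2% and 20.1% of all genes, with a median of -0.48. HOF1, a protein of the cytokinesis ring, read 7.94 to 8.09 on the mutant arrays, all below background, against 10.55 to 10.75 on the wild-type arrays, and was at least 2.84-fold lower (limma adjusted p = 0.00013). CDC20, which switches on the anaphase-promoting complex, read 8.86 to 9.03 in the mutant, also below background, against 10.29 to 10.46 in the wild type, and was at least 2.34-fold lower (limma adjusted p = 0.00079). MMR1, which carries mitochondria into the bud, fell by 1.71, the deacetylase gene HST3 by 1.52 and YNL058C by 1.42. The polo kinase gene CDC5 fell by 0.84 and the septum chitin synthase gene CHS2 by 1.18. KIN3 (0.44) and BUD3 (0.52) rose. The counts were 13 lower and 0 higher without wild-type culture 1 (1 higher at an unadjusted p under 0.05) and 12 and 0 without culture 2 (2 higher unadjusted), where CDC5 was not called (adjusted p = 0.056). Without mutant culture 1 the counts were 22 lower and 4 higher.

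The transcription factor genes of this wave were measured as well. SWI5 read 9.58 to 9.71 on the mutant arrays, against 10.60 to 10.78 on the wild-type arrays, and fell by 1.01 ± 0.09 (SE; limma adjusted p = 0.0013). MCM1 fell by 0.73 and FKH2 by 0.40, while FKH1 rose by 0.51 (limma adjusted p between 0.0042 and 0.023). FKH1 and FKH2 were not called without wild-type culture 1 (0.47 and -0.40, adjusted p = 0.17 and 0.19) or culture 2 (0.56 and -0.39, adjusted p = 0.11 and 0.19). NDD1 (0.12) and HCM1 (-0.31) were not called.

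Many G1/S genes of budding and cell cycle regulation were higher in the mutant at the end of the course. Of 30 measured members 18 rose and 3 fell, against 20.1% and 16.2% of all genes, with a median of 0.38. SVS1, a cell wall protein, read 14.02, 14.21, 14.13, 14.26 and 14.17 on the mutant arrays, against 12.36, 12.25, 12.28, 12.36 and 12.44 on the wild-type arrays. The groups were far apart and the difference was 1.84 ± 0.10 (SE; limma adjusted p = 0.00033). PCL1, a G1 cyclin of the kinase Pho85, read 11.55 to 11.85 in the mutant, against 9.90 to 10.07 in the wild type, and rose by 1.73. CLN1 read 11.34, 11.47, 11.36, 11.37 and 11.34 in the mutant, against 10.17, 9.97, 10.21, 10.26 and 10.34 in the wild type, and rose by 1.21 ± 0.10 (SE; limma adjusted p = 0.0011). Its mutant arrays spread less than its wild-type arrays.

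CLN2 read 11.87 to 12.21 on the mutant arrays, against 10.71 to 11.27 on the wild-type arrays, and rose by 1.06 (limma adjusted p = 0.0058). AXL2, a landmark of axial budding, rose by 1.34 and CRH1, a transglycosylase of the cell wall, by 1.33. The 3 members that fell were BUD9 (-0.87), SUR7 (-0.75) and GIC1 (-0.41). With either wild-type culture left out the list had 8 rises and 2 falls, GIC1 no longer being called (adjusted p = 0.25 and 0.14), and without mutant culture 2 it had 18 and 5. SRL3, a paralogue of the Start inhibitor gene WHI5 that stood outside the list, read 11.82, 11.68, 11.72, 11.44 and 11.55 in the mutant, against 8.35, 8.37, 8.31, 8.49 and 8.40 in the wild type. All 5 wild-type arrays were below background, and the mutant was at least 5.61-fold higher (limma adjusted p = 1e-04).

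The G1/S genes of replication and repair moved less. Of 32 measured members 7 rose and none fell (3 lower at an unadjusted p under 0.05), with a median of 0.09, and the share that rose was near the 20.1% of all genes. RFA2, a subunit of the single-strand binding protein, read 12.71 to 12.86 on the mutant arrays, against 11.89 to 12.05 on the wild-type arrays, and rose by 0.84 (limma adjusted p = 0.0023). The cohesin genes MCD1 and PDS5 and the checkpoint kinase gene DUN1 rose by 0.78, 0.66 and 0.73. The rises came to 2 without wild-type culture 1 and to 1 without wild-type culture 2, and PDS5 and DUN1 were called in neither case. Falls appeared when a mutant culture was left out, with 8 rises and 5 falls without mutant culture 1 and 12 and 7 without mutant culture 2. Among the repressors of this part of the cycle, YHP1 rose by 0.88 and YOX1 by 0.81 (limma adjusted p = 0.002 and 0.007), and YOX1 was not called without wild-type culture 1 (0.68, adjusted p = 0.061). WHI5 (-0.48), SWI6 (-0.35), MBP1 (-0.07) and NRM1 (0.02) were not called.

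Histone genes and genes of S phase and the spindle gave no common direction. Of 8 measured histone genes 2 rose (20.1% of all genes did), HHO1 by 0.50 and HHT2 by 0.34, and the median was 0.17. In the list of 19 S phase and spindle genes 5 rose and 5 fell, against 20.1% and 16.2% of all genes. The spindle pole gene SPC98 rose by 0.63 and the kinesin gene KIP3 by 0.52, while gamma-tubulin TUB4 fell by 0.62 and the kinetochore gene DSN1 by 0.54. Without wild-type culture 1 limma called none of these genes, with 6 higher and 3 lower at an unadjusted p under 0.05, and none without wild-type culture 2, with 5 higher and 4 lower. Without mutant culture 2 the calls were 4 higher in the histone list, and 7 higher and 8 lower in the other.

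**Figure D3:**
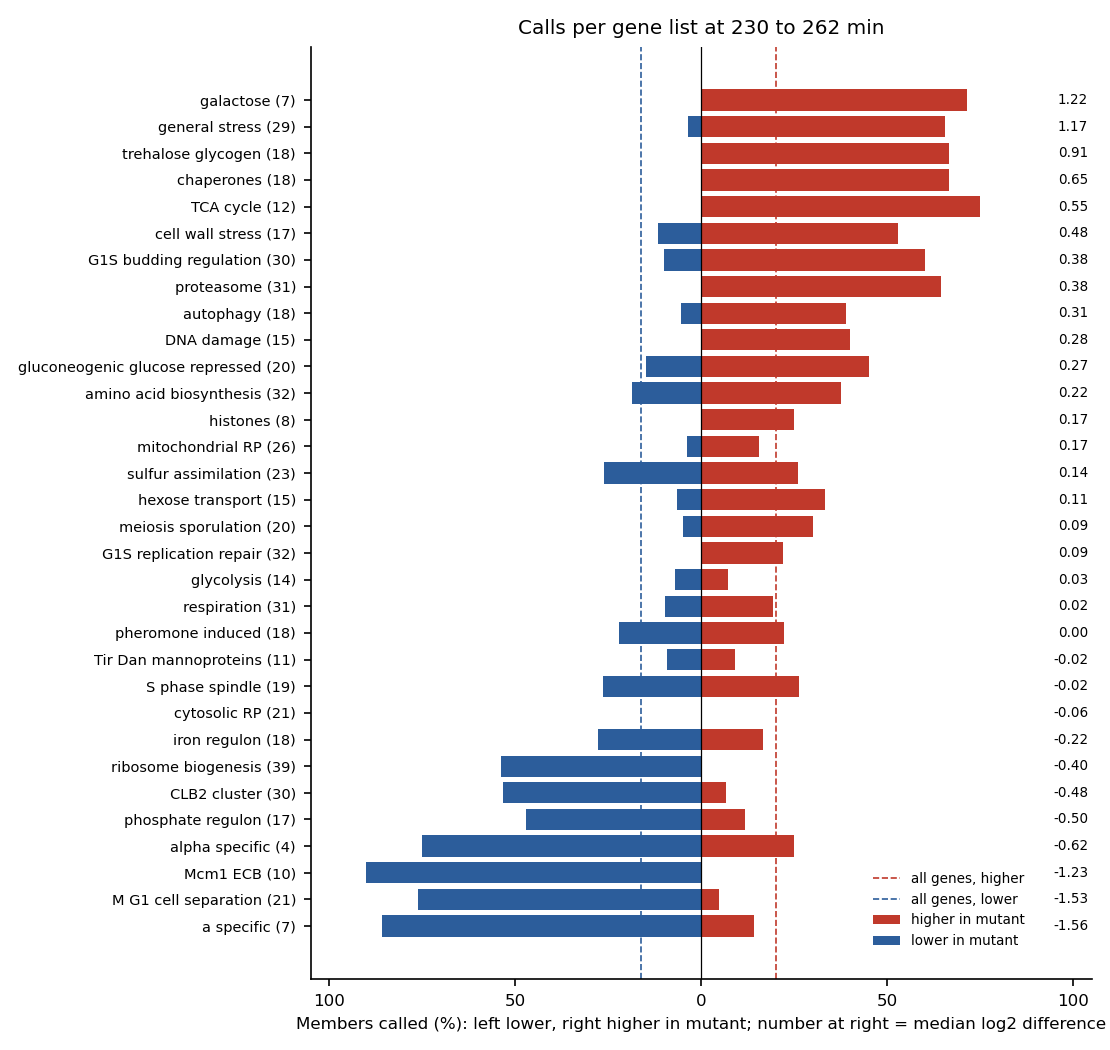
Share of the measured members of each gene list called higher (red, right of 0) and lower (blue, left of 0) in the mutant at 230 to 262 min, in percent, with the number of members in parentheses and the median log2 difference at the right. Dashed lines give the shares over all genes, 20.1% higher and 16.2% lower.

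The kinase gene of the cell wall integrity pathway and several genes of the wall stress response rose. SLT2 read 13.32, 13.23, 13.24, 13.12 and 13.12 on the mutant arrays, against 11.20, 11.17, 11.02, 11.12 and 11.07 on the wild-type arrays. The spread within each strain was a small part of the difference of 2.08 ± 0.09 (SE; limma adjusted p = 0.00021). PRM5, a membrane protein induced by pheromone and by wall stress, read 12.01, 12.27, 12.11, 12.29 and 12.09 in the mutant, against 9.13, 8.97, 9.11, 8.91 and 9.11 in the wild type. All 5 wild-type arrays were below background and the mutant was at least 8.17-fold higher (limma adjusted p = 0.00013).

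In the cell wall stress list 9 of 17 measured members rose and 2 fell, against 20.1% and 16.2% of all genes, with a median of 0.48. The wall protease gene YPS3 read 11.47 to 12.22 on the mutant arrays, against 9.08 to 9.56 on the wild-type arrays, and rose by 2.61 (limma adjusted p = 0.0011), with 2 wild-type arrays below background. GSC2, the inducible glucan synthase, rose by 2.07, the wall protein gene CWP1 by 1.43 and PTP2, a phosphatase that acts on Slt2, by 1.22. PIR3 (-1.49) and HSP150 (-1.37), which encode wall proteins with internal repeats, fell. So did PIR1 (-1.47) of the M/G1 list, which belongs to the same protein family. With either wild-type culture left out 7 members rose and 2 fell. In the list of Tir and Dan mannoproteins TIR3 rose by 2.31 ± 0.09 (SE; limma adjusted p = 0.00013) and DAN4 fell by 0.46, and the other 9 of 11 were not called. DAN4 was not called without wild-type culture 1 or 2 (adjusted p = 0.24 and 0.12), and without mutant culture 2 the list had 3 falls.

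General stress genes rose in the mutant, and its cultures differed in how much. Of 29 measured members 19 rose and 1 fell, against 20.1% and 16.2% of all genes, with a median of 1.17. HSP12, a small heat shock protein that protects membranes, read 13.98, 12.96, 14.22, 12.98 and 14.34 on the mutant arrays, against 10.49, 10.85, 10.33, 10.81 and 10.45 on the wild-type arrays. The 3 arrays of mutant culture 1 were the highest, those of mutant culture 2 lay lower, and both cultures were above every wild-type array. The difference was 2.95 ± 0.39 (SE; limma adjusted p = 0.0042). CTT1, the cytosolic catalase, read 12.12, 10.78, 12.31, 10.81 and 12.49 in the mutant, against 8.87, 9.11, 8.92, 9.23 and 9.15 in the wild type. Again culture 1 was the higher of the mutant cultures, and CTT1 rose by 2.48 ± 0.46 (SE; limma adjusted p = 0.011), with 3 wild-type arrays below background.

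Mutant culture 1 was above mutant culture 2 for 25 of the 29 stress genes, against 60.8% of all 5449 genes. Other lists had this order too, among them 27 of 31 proteasome, 26 of 31 respiratory chain and 24 of 26 mitochondrial ribosomal protein genes. The list mean was 11.40 in mutant culture 1 and 10.67 in mutant culture 2, and every wild-type array lay between 9.86 and 9.99. At matched times, the median difference was 1.49 for mutant culture 1 against wild-type culture 2 and 0.80 for mutant culture 2 against wild-type culture 1. HSP42, another small heat shock protein, rose by 2.50 (limma adjusted p = 0.0015). YGP1, a secreted glycoprotein, read 9.74 to 10.38 on the mutant arrays, against 12.19 to 12.88 on the wild-type arrays, and fell by 2.53 (limma adjusted p = 0.0018). There were 12 rises without wild-type culture 1 and 13 without wild-type culture 2. MSN2 (-0.33) and MSN4 (0.26) were not called.

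Trehalose and glycogen genes showed the same split. Of 18 measured members 12 rose and none fell (none lower at an unadjusted p under 0.05), against 20.1% and 16.2% of all genes. The median was 0.91, and 16 were higher in mutant culture 1 than in mutant culture 2. TSL1, a subunit of trehalose synthase, read 13.14, 11.90, 13.12, 11.69 and 13.15 on the mutant arrays, against 10.03, 10.17, 9.98, 10.42 and 10.32 on the wild-type arrays. It rose by 2.26 ± 0.41 (SE; limma adjusted p = 0.01), with the mutant cultures more than 1 unit apart and both above the wild type. NTH1, the trehalase, rose by 2.07, PGM2, a phosphoglucomutase, by 1.77 and the glycogen debranching enzyme gene GDB1 by 1.71. PGM2 was not called without wild-type culture 1 or 2 (adjusted p = 0.064 and 0.057), and 9 members of the list rose in either case.

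All 18 chaperone genes had positive differences, 12 of them called (20.1% of all genes were called higher), with a median of 0.65. HSP104, the disaggregase, read 13.78, 13.44, 13.75, 13.30 and 13.62 on the mutant arrays, against 12.03, 12.20, 12.12, 12.23 and 12.19 on the wild-type arrays, and rose by 1.38 ± 0.14 (SE; limma adjusted p = 0.002). The mitochondrial disaggregase gene HSP78 rose by 1.51, the Hsp70 gene SSA4 by 1.38 and the exchange factor gene SSE2 by 1.69. Limma called 8 of them without wild-type culture 1 and 9 without wild-type culture 2. The arrays of mutant culture 1 had medians over genes of 10.85 to 10.89 and those of mutant culture 2 of 10.79 and 10.80, and the part of this offset in the split was not tested.

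**Figure D4:**
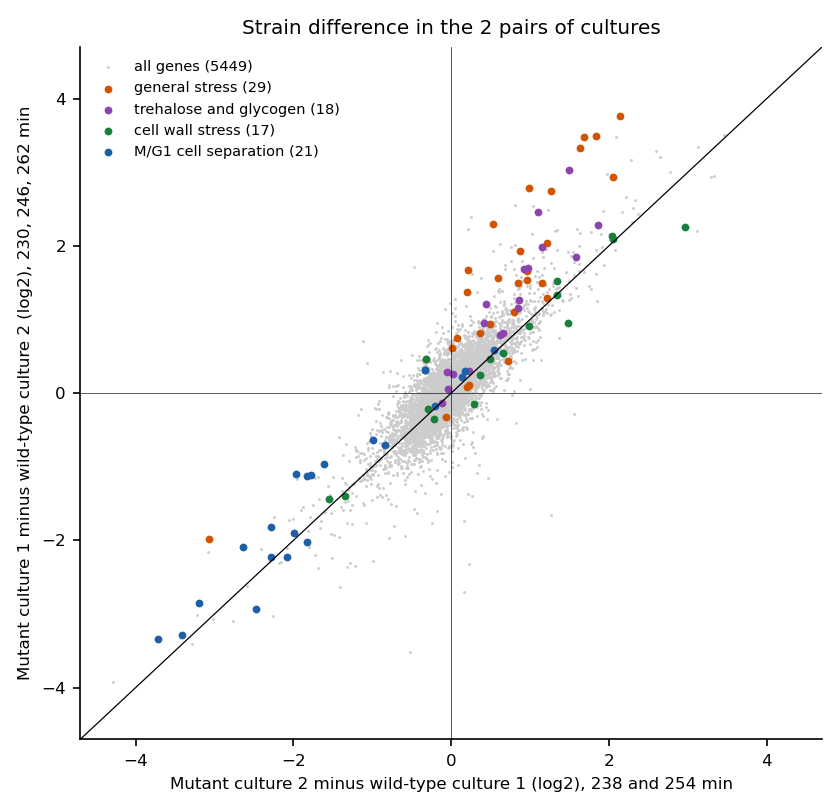
Mutant minus wild type (log2) at matched times for each of 5449 genes, with mutant culture 1 minus wild-type culture 2 on the vertical axis and mutant culture 2 minus wild-type culture 1 on the horizontal axis. Most general stress (orange) and trehalose and glycogen genes (purple) lie above the diagonal, with medians of 1.49 and 1.18 on the vertical axis, against 0.80 and 0.75 on the horizontal axis. Most M/G1 genes (blue) lie in the lower left, and 3 of the 21 had a positive strain difference.

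Genes of protein breakdown also rose. Of 31 proteasome genes 20 rose and none fell (none lower at an unadjusted p under 0.05), against 20.1% and 16.2% of all genes. The median was 0.38. PUP1, a catalytic subunit of the core particle, read 13.19 to 13.25 on the mutant arrays, against 12.43 to 12.57 on the wild-type arrays, and rose by 0.67 (limma adjusted p = 0.0043). None of the proteasome calls was kept without wild-type culture 1 or without wild-type culture 2, where the spread was set by the mutant cultures alone. PUP1 still differed by 0.69 without wild-type culture 1 and by 0.65 without wild-type culture 2. UBI4, the polyubiquitin gene, rose by 2.03 ± 0.10 (SE; limma adjusted p = 0.00033).

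UBC13, which builds ubiquitin chains in DNA repair, read 12.80, 12.36, 12.77, 12.24 and 12.76 on the mutant arrays, against 9.52, 9.71, 9.42, 9.70 and 9.54 on the wild-type arrays, and rose by 2.94 ± 0.18 (SE; limma adjusted p = 0.00057). UBC13 and UBI4 were 2 of the 15 measured genes of the DNA damage list, of which 6 rose and none fell (none lower at an unadjusted p under 0.05), with a median of 0.28. Over all genes 20.1% rose and 16.2% fell. Rises in that list came to 4 without wild-type culture 1 and to 3 without wild-type culture 2. The ribonucleotide reductase gene RNR3 rose by 0.46, and was not called in either case (adjusted p = 0.1 and 0.19). RNR2, RNR4 and HUG1, which the checkpoint also induces on damage, were not called (0.04, 0.18 and -0.09, with HUG1 below background on all 10 arrays). In the autophagy list 7 of 18 rose and 1 fell (median 0.31), again beside 20.1% and 16.2% of all genes. Here 6 members were below background on all 10 arrays, and ATG8, the protein that coats autophagosomes, was at 1.02. With either wild-type culture left out 4 autophagy genes rose and none fell (8 higher and 1 or 2 lower at an unadjusted p under 0.05), and without mutant culture 2 it was 11 and 3.

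Metabolic genes split by pathway. Of 12 genes of the citric acid cycle 9 rose and none fell (none lower at an unadjusted p under 0.05), against 20.1% and 16.2% of all genes. The median was 0.55. IDH1, a subunit of isocitrate dehydrogenase, read 13.07 to 13.23 on the mutant arrays, against 12.11 to 12.34 on the wild-type arrays, and rose by 0.93 (limma adjusted p = 0.0028). LSC2 rose by 0.88 and the aconitase gene ACO1 by 0.85. Of the cycle genes 3 rose without wild-type culture 1 and 4 without wild-type culture 2. Respiratory chain genes did not follow, with 6 of 31 higher (20.1% of all genes), 3 lower (16.2%) and a median of 0.02. Limma called none of these without wild-type culture 1 (4 higher and 2 lower at an unadjusted p under 0.05), and 1 higher without wild-type culture 2. With mutant culture 1 left out 6 were higher and 7 lower, and with mutant culture 2 left out 11 and 5. CYC7, the hypoxic cytochrome c, rose by 1.68 ± 0.48 (SE; limma adjusted p = 0.04) with an SD of 1.12 between the mutant cultures and 4 wild-type arrays below background, and was not called without wild-type culture 1 or 2 (adjusted p = 0.085 and 0.1). COX5B, the hypoxic subunit of cytochrome oxidase, read 9.61, 9.03, 9.65, 9.14 and 9.69 on the mutant arrays, against 8.67 to 8.73 on the wild-type arrays, all 5 below background. It was at least 1.17-fold higher in the mutant mean (limma adjusted p = 0.039), but both arrays of mutant culture 2 were below background, and it was not called without wild-type culture 1 or 2 (adjusted p = 0.14 and 0.13).

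Glucose handling showed a few large rises. HXT2, a glucose transporter of high affinity, read 13.30, 13.69, 13.25, 13.71 and 13.30 on the mutant arrays, against 11.01, 10.50, 11.06, 10.66 and 11.16 on the wild-type arrays. The strains differed by 2.66 ± 0.21 (SE; limma adjusted p = 0.001), more than the distance between cultures of either strain. The hexokinase gene HXK1 rose by 2.47, HXT7 by 1.85 and the glucokinase gene GLK1 by 0.98. These were among 5 rises and 1 fall in 15 genes of hexose transport and phosphorylation (median 0.11), against 20.1% and 16.2% of all genes. The list mean of 14 glycolytic genes lay between 14.445 and 14.527 on the 10 arrays, and compression of such bright signal was not tested. Of these genes 1 was higher (ENO1, 0.31), 1 lower (PFK2, -0.37) and the median was 0.03. Neither was called without wild-type culture 1 (adjusted p = 0.23 for ENO1 and 0.32 for PFK2) or culture 2 (0.36 and 0.14). Of 20 glucose-repressed genes 9 rose and 3 fell (median 0.27), against 20.1% and 16.2% of all genes, so the share that fell was near that of all genes. In this list 6 members were below background on all 10 arrays, and IDP2 led the rises at 1.24. In the glucose-repressed list 1 gene rose without wild-type culture 1 and 3 without wild-type culture 2, with no fall in either case (2 and 1 lower at an unadjusted p under 0.05), and 12 rose and 6 fell without mutant culture 2. The hexose list then had 7 rises and 4 falls.

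In the galactose regulon 5 of 7 measured members rose and none fell, against 20.1% and 16.2% of all genes, with a median of 1.22. GAL1 read 10.42 to 10.57 on the mutant arrays, against 9.08 to 9.31 on the wild-type arrays, and rose by 1.25 ± 0.09 (SE; limma adjusted p = 0.00085). GAL10, the epimerase, averaged 10.14 in the mutant, against 8.68 in the wild type, which was below background on all 5 arrays, and was at least 2.00-fold higher (limma adjusted p = 0.00085). With 4 wild-type arrays below background, GAL7, the transferase, rose by 1.22. GAL2 (0.04), the permease, and GAL80 (0.09), the inhibitor, were not called. The promoter of GAL1 also drives the CLB1 construct.

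Genes of nutrient supply moved in both directions. In the phosphate list 8 of 17 measured members fell and 2 rose, against 16.2% and 20.1% of all genes, with a median of -0.50. PHO5, the secreted acid phosphatase, read 9.12, 9.45, 9.04, 9.17 and 8.91 on the mutant arrays, against 11.80, 10.62, 11.32, 10.57 and 10.89 on the wild-type arrays. It fell to 9.17 ± 0.20, against 10.96 ± 0.52 in the wild type (SD, n = 2 cultures each; limma adjusted p = 0.0049). Of the wild-type cultures, culture 2 was the higher, and 3 mutant arrays were below background. SPL2 fell by 1.55 and the transporter gene PHO84 by 0.72. The phosphate list had 6 falls without wild-type culture 1 and 4 without wild-type culture 2, with no rise in either case (2 higher at an unadjusted p under 0.05 in each).

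Of 32 measured genes of amino acid biosynthesis 12 rose and 6 fell (median 0.22), against 20.1% higher and 16.2% lower over all genes. The share that fell was thus near that of all genes. LYS1, the last enzyme of lysine synthesis, read 13.01 to 13.30 on the mutant arrays, against 11.59 to 11.76 on the wild-type arrays, and rose by 1.51 (limma adjusted p = 0.00067). ARG1 rose by 1.23 and HIS5 by 1.07, while LEU1, LEU4 and LEU9 fell by 0.52, 0.45 and 0.49. No fall in this list was called without wild-type culture 1 (3 lower at an unadjusted p under 0.05) or culture 2 (4 lower), and the rises came to 5 and 6. Strains with different LEU2, HIS2, ARG4 and TRP1 markers are compared here, and the part of these markers was not tested. Among 23 sulfur genes 6 rose and 6 fell, beside 20.1% higher and 16.2% lower over all genes. MET17 was at 0.98, against the methionine synthase gene MET6 at -1.28 and SAM1, which makes S-adenosylmethionine, at -1.01. Sulfur genes gave 3 rises and 3 falls with either wild-type culture left out, and 11 and 6 without mutant culture 2. In the iron regulon 3 of 18 rose and 5 fell (median -0.22), again beside 20.1% and 16.2% of all genes. HMX1, a haem oxygenase, was at 0.90 and the reductase gene FRE1 at -1.27 ± 0.38 (SE; limma adjusted p = 0.047). FRE1 was not called without wild-type culture 1 or 2 (adjusted p = 0.13 and 0.093), and the iron list then had 2 rises and 2 falls. It had 5 rises without mutant culture 1 and 11 falls without mutant culture 2.

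Genes for making ribosomes fell, while those for ribosomal proteins were not called. Of 39 measured ribosome biogenesis genes 21 fell and none rose (none higher at an unadjusted p under 0.05), with a median of -0.40, and 38 had negative differences. NOC3, a factor of large subunit export, read 10.49, 10.19, 10.37, 10.15 and 10.25 on the mutant arrays, against 11.52, 11.54, 11.54, 11.58 and 11.50 on the wild-type arrays, and fell by 1.27 ± 0.11 (SE; limma adjusted p = 0.0011). RLP7 fell by 0.83, the pseudouridine synthase gene CBF5 by 0.81 and UTP20, of the small subunit processome, by 0.70. Falls numbered 2 without wild-type culture 1 and 6 without wild-type culture 2, against 33 when mutant culture 2 was left out, and CBF5 and UTP20 were not called without culture 1 (adjusted p = 0.054 and 0.053). Of 21 cytosolic ribosomal protein genes limma called none (0 also at an unadjusted p under 0.05), all had negative differences and the median was -0.06. Their list mean lay between 14.518 and 14.621 on the 10 arrays, the brightest of the lists, and compression of such signal was not tested. Against 20.1% higher and 16.2% lower over all genes, mitochondrial ribosomal protein genes had 4 rises and 1 fall in 26 (median 0.17). Limma called none of these without wild-type culture 1 (2 higher and 0 lower at an unadjusted p under 0.05) or culture 2 (4 and 1). The mutant cultures parted here, with a median of 0.39 for mutant culture 1 against wild-type culture 2 and -0.04 for mutant culture 2 against wild-type culture 1. Without mutant culture 2 there were 17 rises and 1 fall, and without mutant culture 1 there were 5 and 4.

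Mating genes were used to check the labelled cell type. Of 7 a-specific genes 6 fell and 1 rose, with a median of -1.56. The gene that rose was BAR1, for which the wild type is labelled bar1. MFA2, an a-factor gene, read 9.87, 9.75, 9.96, 9.73 and 10.003 on the mutant arrays, against 13.86, 14.03, 13.86, 14.04 and 13.92 on the wild-type arrays. It had the most negative measured difference of all genes, -4.11 ± 0.12 (SE; limma adjusted p = 1e-04), with mutant signal still above background. MFA1 read 10.79, 10.21, 10.97, 10.91 and 10.84 in the mutant, against 13.24, 13.09, 12.85, 12.87 and 12.88 in the wild type, and fell by 2.27 ± 0.13 (SE; limma adjusted p = 0.00043). The exporter gene STE6 fell by 2.24, the receptor gene STE2 by 1.56 and AGA2 by 1.29.

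Markers of other cell types moved in both directions, many of them below background. The list mean of 4 alpha-specific genes lay between 9.14 and 9.45 on the mutant arrays, against 9.53 to 9.85 on the wild-type arrays. STE3, the a-factor receptor of alpha cells, was called higher (0.50, limma adjusted p = 0.014) with all 10 arrays below background, and the other 3 genes fell, among them SAG1 (-0.64). Limma called none of them without wild-type culture 1 (1 higher and 3 lower at an unadjusted p under 0.05) and 1 lower without wild-type culture 2. Of 20 meiosis and sporulation genes 13 were below background on all 10 arrays, and 6 rose and 1 fell, against 20.1% and 16.2% of all genes. The list mean lay between 8.58 and 8.73 in the mutant, against 8.47 to 8.54 in the wild type. DMC1, the recombinase of meiosis, averaged 9.22 in the mutant, against 8.30 in the wild type, with 2 mutant arrays and all wild-type arrays below background. The rises among the meiosis genes came to 2 with either wild-type culture left out, and to 8, with 4 falls, without mutant culture 2. Pheromone-induced genes had 4 rises and 4 falls in 18 (20.1% and 16.2% over all genes), fewer with either wild-type culture left out. Among them KAR4, a transcription factor of karyogamy, rose by 1.01 and AGA1 by 0.68, and GPA1, the alpha subunit of the mating G protein, fell by 1.46. KAR4 was not called without wild-type culture 2, nor AGA1 without wild-type culture 1 (adjusted p = 0.069 and 0.061).

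Several of the largest differences lay outside these lists. CRG1, a methyltransferase of cantharidin resistance, read 11.44, 11.48, 11.78, 11.53 and 11.79 on the mutant arrays, against 8.16, 7.94, 8.17, 8.16 and 8.17 on the wild-type arrays. The wild type was below background on all 5 arrays, and the mutant was at least 5.44-fold higher (limma adjusted p = 1e-04). BOP2, of unknown function, averaged 10.93 in the mutant, against 7.81 in the wild type and was at least 3.45-fold higher (limma adjusted p = 0.00013). NQM1, a transaldolase, averaged 11.50 in the mutant, against 8.78 in the wild type, and was at least 5.14-fold higher (limma adjusted p = 0.0018). TMA10, a ribosome-associated protein, averaged 11.04 in the mutant, against 8.26 in the wild type, and was at least 3.73-fold higher (limma adjusted p = 0.0046). With the wild type at background, their order of size is not known. MRH1, a membrane protein related to Hsp30, read 11.37, 11.62, 11.07, 11.55 and 10.96 in the mutant, against 14.27, 14.35, 14.20, 14.34 and 14.21 in the wild type, and fell by 2.93 ± 0.16 (SE; limma adjusted p = 0.00043). Its paralogue YRO2 fell by 2.62 ± 0.22 (SE; limma adjusted p = 0.0011).

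The strain difference was then set against that in the window just before, from 206 to 222 min (3 arrays per strain, or 1 or 2 per culture). Limma called 29 genes with a more positive difference (0.532%) and 26 with a more negative one (0.477%), or 1.01% of 5449. At an unadjusted p under 0.05 there were 726 and 545, so few calls do not show that the other differences stayed the same. Of the M/G1 genes 10 of 21 became more negative and none more positive. DSE4 changed by 0.04 in the mutant and by 1.01 in the wild type, so that the difference became more negative by -0.97 ± 0.05 (SE; limma adjusted p = 0.021). For DSE1 the changes were -0.08 in the mutant, against 0.96 in the wild type, for DSE3 -0.22 in the mutant, against 0.84 in the wild type, and for NIS1 -0.18 in the mutant, against 0.79 in the wild type. In each of these the wild type moved more than the mutant. AIM44, a regulator of the cytokinesis ring, had the most negative change (-1.16), with -0.11 in the mutant, against 1.05 in the wild type. The strain difference of AIM44 at the end itself was not called, nor was that of NIS1.

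The list mean of the M/G1 genes lay between 10.35 and 10.51 on the mutant arrays at the end, against 11.57 on the wild-type array at 230 min and 11.98 to 12.04 on the later wild-type arrays. All 21 members were higher at the end than at 206 to 222 min in the wild type, and 10 of the 21 in the mutant. Of the genes called more positive, AGA1, the anchor of a-agglutinin, changed by 0.23 in the mutant, against -0.59 in the wild type, a change of 0.82 ± 0.06 in the difference (SE; limma adjusted p = 0.023). CRG1 changed by 0.77 in the mutant and by 0.02 in the wild type. YDR042C (0.75), the carnitine acetyltransferase gene YAT1 (0.69), the tubulin-folding gene CIN2 (0.66) and MFA1 (0.66) followed. In the sulfur list MET6, MET14, MET28 and SAM1 became more negative (-0.65, -0.64, -0.56 and -0.40). These counts depended on every culture. Limma called 2 genes more positive and 11 more negative without wild-type culture 1, and none without mutant culture 1, mutant culture 2 or wild-type culture 2, where 254 to 483 genes in each direction had an unadjusted p under 0.05.

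Against the longer stretch from 62 to 222 min (19 arrays per strain), 945 genes had a more positive difference (17.3%) and 859 a more negative one (15.8%), or 33.1% in all. Of the 1096 genes higher at the end, 750 were also more positive than before and 6 more negative. Of the 884 genes lower at the end, 616 were more negative and 7 more positive. These tests share the arrays of the end window, so the overlap is given as a count alone. Without wild-type culture 1 there were 13 and 9 calls and without wild-type culture 2 there were 6 and 5.

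Some differences at the end were larger than earlier in the course and others were not. SLT2 averaged 12.02 in the mutant, against 11.38 in the wild type at 62 to 222 min, and its difference grew by 1.44 ± 0.08 (SE; limma adjusted p = 0.0025). Cell wall stress genes became more positive in 13 of 17 and more negative in 2, general stress genes more positive in 12 of 29 and chaperones in 10 of 18. MFA2 averaged 11.98 in the mutant, against 13.84 in the wild type over the earlier stretch, and its difference became more negative by -2.25. Ribosome biogenesis genes became more negative in 24 of 39 and M/G1 genes in 14 of 21. For CLB3 and CLB4 the change was 0.07 and -0.0027 and was not called, and for SNL1, BAR1, GAL1 and URA3 the difference became smaller (-0.57, -0.52, -0.38 and -0.35; limma adjusted p between 0.0064 and 0.034). CLB1 was 1.11 higher in the mutant over the earlier stretch and 0.23 at the end, a change of -0.89 ± 0.06 (SE; limma adjusted p = 0.0042).

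**Figure D5:**
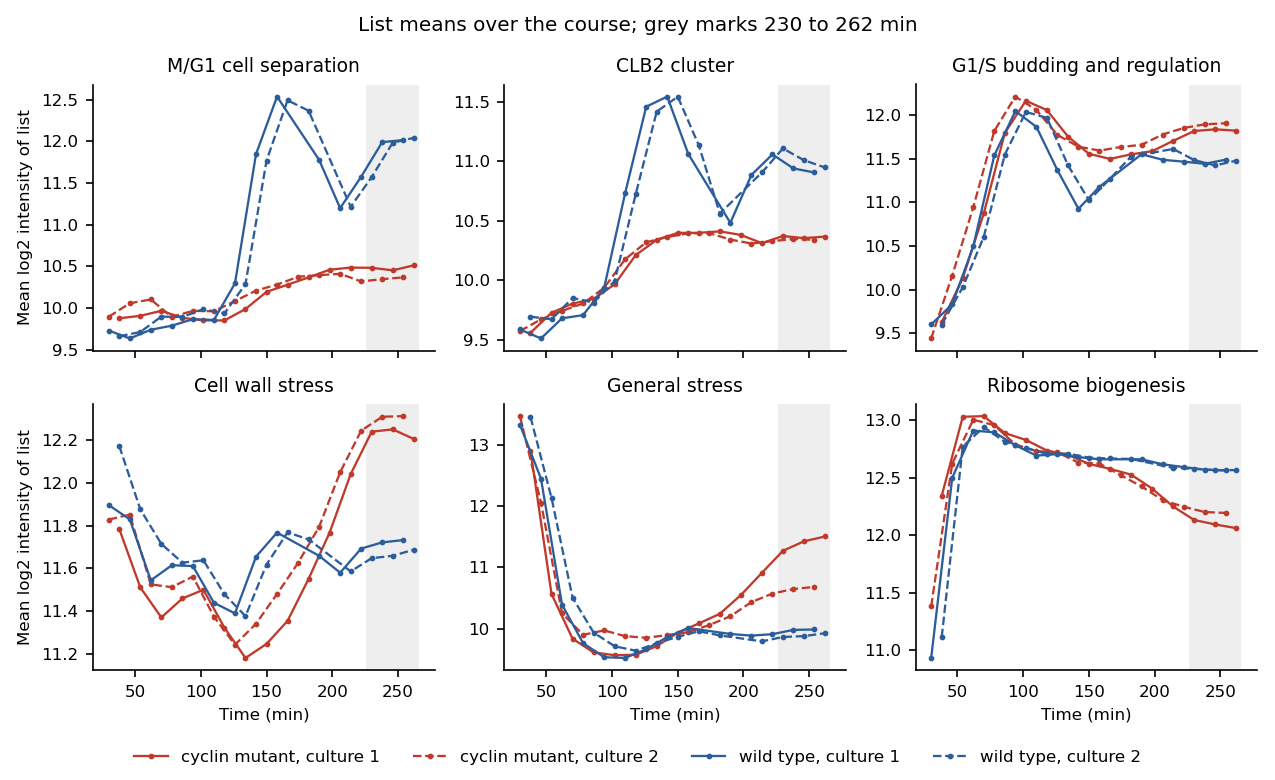
Mean level of 6 gene lists in each culture over the whole course (vertical axes, log2 intensity, not starting at 0, with a scale of its own in each panel; horizontal axes, min). Red lines are cyclin mutant cultures and blue lines wild-type cultures, solid for culture 1 and dashed for culture 2, and grey marks 230 to 262 min. In the grey window the M/G1 list lies between 10.35 and 10.51 in the mutant, against 11.57 to 12.04 in the wild type, and the 2 mutant cultures part in the general stress panel.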

How the data were processed

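Each array gave a linear intensity per probe set, deposited by the authors and made with affy 1.8.1 per the submitters' processing notes. Background correction and normalisation are not given in the sources used here. Of 10928 probe sets, 5498 had a single S. cerevisiae gene name, which gave 5449 genes (the brightest probe set of a gene was used). Log2 values of the deposited intensity plus a pseudocount of 1 were averaged per culture. Strains were compared with limma 3.58.1 in R 4.3.3 on 4 culture means, and changes between windows on per-culture differences, with Benjamini-Hochberg adjustment over all genes at 0.05. Replicate numbers were not treated as pairs, since no shared source or batch is labelled. Deviations of same-numbered cultures correlated at 0.165, and the crossed pairing gives -0.165 by construction with 2 cultures per strain, so this value cannot decide on pairing. Figures were drawn with matplotlib 3.10.9.

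The arrays hold no counts, so their number, 5 per strain from 2 cultures, limits the precision. Genes and lists were chosen with earlier results of these data known. Genes named by rule were those of the strain labels, a set of regulators and the 12 largest called, non-overlapping differences each way. The rule also took 4 called members per list, or all called members where a list had 5 or fewer. Also named were the 6 largest called changes each way. Of these 167 genes 153 were called, as the rule mostly selects calls. Other list members named as examples were chosen after their values were seen. Alternatives covered pseudocount, scaling, background filter, probe sets, prior variance, blocks, times and each culture left out. Promoter motifs were not analysed here.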

Additional observations from a re-analysis of the deposited data

Results flagged for a closer look

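Among the named genes, 334 sets of 5 arrays were checked for an array far from the others of its strain. In all 13 stood apart (3.89%), 5 of them in the mutant and 8 in wild-type cultures. The cut flags about 5% of sets of independent arrays, but these arrays come from 2 cultures per strain, so the shares cannot be compared. On the mutant array at 238 min, AGA1 read 11.54 (others 11.71 to 11.77), FKH2 9.58 (others 9.77 to 9.85), HOF1 7.94 (others 8.07 to 8.09) and MFA1 10.21 (others 10.79 to 10.97). On the mutant array at 254 min, YHP1 read 10.37 (others 10.29 to 10.30). On the wild-type array at 238 min, BAR1 read 8.49 (others 8.08 to 8.19) and CRG1 7.94 (others 8.16 to 8.17). The other 6 were on the wild-type array at 230 min, where DSE3 read 10.72 (others 11.15 to 11.23), DSE4 12.01 (others 12.53 to 12.60), DSN1 10.54 (others 10.38 to 10.41), NRM1 10.90 (others 10.62 to 10.70), PUP1 12.43 (others 12.55 to 12.57) and RPN6 12.51 (others 12.63 to 12.65).

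The strain difference at the end differed from that at 206 to 222 min by limma for the 12 genes named here, which had the 6 largest changes each way among the genes called in that test. It became more positive for AGA1 (0.82), CRG1 (0.75), YDR042C (0.75), YAT1 (0.69), CIN2 (0.66) and MFA1 (0.66), and more negative for AIM44 (-1.16), DSE3 (-1.06), DSE1 (-1.04), NIS1 (-0.97), DSE4 (-0.97) and PIR1 (-0.82). Each was called in 9 to 13 of 16 alternatives. What sets these arrays and genes apart was not tested.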

How the results depend on the processing

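The strain difference at the end kept its counts within 1.5 times the reported ones under every alternative except leaving out a culture, where limma called 344 to 1884 genes higher and 218 to 1457 lower. Leaving out a wild-type culture leaves the spread to be set by the mutant cultures, whose median SD was 0.109, against 0.0562 in the wild type. Leaving out a mutant culture leaves it to the wild-type cultures, so calls kept then say nothing of the spread between mutant cultures. Of 153 named genes that were called, 106 kept call and direction without wild-type culture 1, 111 without wild-type culture 2 and all 153 without either mutant culture. Genes that changed sign were uncalled in the reported comparison. With a culture left out, MBP1 ranged between -0.35 and 0.20, NDD1 between -0.18 and 0.41, NRM1 between -0.027 and 0.065 and SWI4 between -0.47 and 0.055. NRM1 was at -0.0036 without the 262 min arrays.

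The changes against 206 to 222 min, 29 more positive and 26 more negative, moved most. There were 52 more positive after quantile normalisation, 71 and 53 with arrays centred on the median, 5 and 2 with an intensity trend in the prior variance, 16 and 17 at 238 to 254 min and 15 and 15 without 262 min. Without 1 culture they were 0 to 2 and 0 to 11, and against 62 to 222 min 6 to 1121 and 5 to 1028. With the replicate number as a block there were 168 and 111 such changes, and with the crossed pairing by sampling times (chosen because those cultures share times) 189 and 109. The crossed pairing gave 615 and 513 changes against 62 to 222 min, and the replicate block 1215 genes higher and 1010 lower at the end. The causes of these shifts were not tested, and signal near background limits what can be said of dim genes.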
